A study of Homo sapiens with 8 samples.

Results

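NOP2/NSUN1 is a nucleolar enzyme of the NSUN family, which adds a methyl group to carbon 5 of cytosines in RNA. The enzyme holds the cytosine through a covalent bond during the reaction, and a second cysteine of the active site is needed to let the methylated RNA go. In the C459A mutant this releasing cysteine is an alanine, so the RNA stays bound, and miCLIP recovers such RNA by immunoprecipitation without UV light. The results below concern the peaks that were listed for only one of the constructs, C459A or WT.

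HEK293T cells, a human embryonic kidney line, were transfected with a plasmid for FLAG-tagged C459A NOP2 or FLAG-tagged WT NOP2 and kept for 40 h, so that all groups also held their own untagged NOP2. The 8 libraries comprised 2 biological replicates of the FLAG immunoprecipitate (IP) and 2 of the size-matched input (SMInput, lysate RNA cut from the membrane at the same size, without immunoprecipitation) of each construct. The authors' peak lists hold 287 peaks for C459A and 251 for WT, each with the IP over SMInput ratio as 1 log2 fold change, called log2 enrichment too, and with 1 adjusted p-value from both replicates together. These adjusted p-values are the authors', from their peak caller, and compare IP with SMInput within a construct. The lists keep peaks of at least 2-fold with an adjusted p under 0.05, and the spread between replicates and the depth are unknown.

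A peak was taken as C459A-only or WT-only when no peak of the other list shared at least 1 base with it on the same reference and strand. The members were thus chosen by where both sets of enriched peaks lie, that is by the values described here, and absence from a list means that no enriched peak passed the thresholds there. It is not a tested difference, and the pooled lists allowed no test between C459A and WT. Of the 287 C459A peaks, 81 were C459A-only (28.2%), and 206 overlapped a WT peak. Of the 251 WT peaks, 44 were WT-only (17.5%), and 207 overlapped a C459A peak. Together the C459A-only and WT-only peaks are 125 of 538 listed peaks.

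The classes of RNA on both sides differed in number. The 81 C459A-only peaks held 18 of the 71 C459A peaks on box C/D snoRNAs, 14 of 52 on 5S pseudogenes, 13 of 36 on nuclear tRNAs, 6 of 7 on H/ACA snoRNAs, all 6 on NOP2 mRNA and both on vault RNA. The 44 WT-only peaks held 9 of the 21 WT peaks on L1 retrotransposons, 7 of 57 on rRNA and its precursor, 6 of 9 antisense to genes, 5 of 58 on box C/D snoRNAs and 3 of 26 on nuclear tRNAs. No WT-only peak lay on a 5S pseudogene or an H/ACA snoRNA. The WT list held 38 peaks on 5S pseudogenes and 1 on an H/ACA snoRNA, and each had an overlapping C459A peak. On rRNA only 1 of the 48 C459A peaks was C459A-only, and on L1 only 1 of 13.

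**Figure D1:**
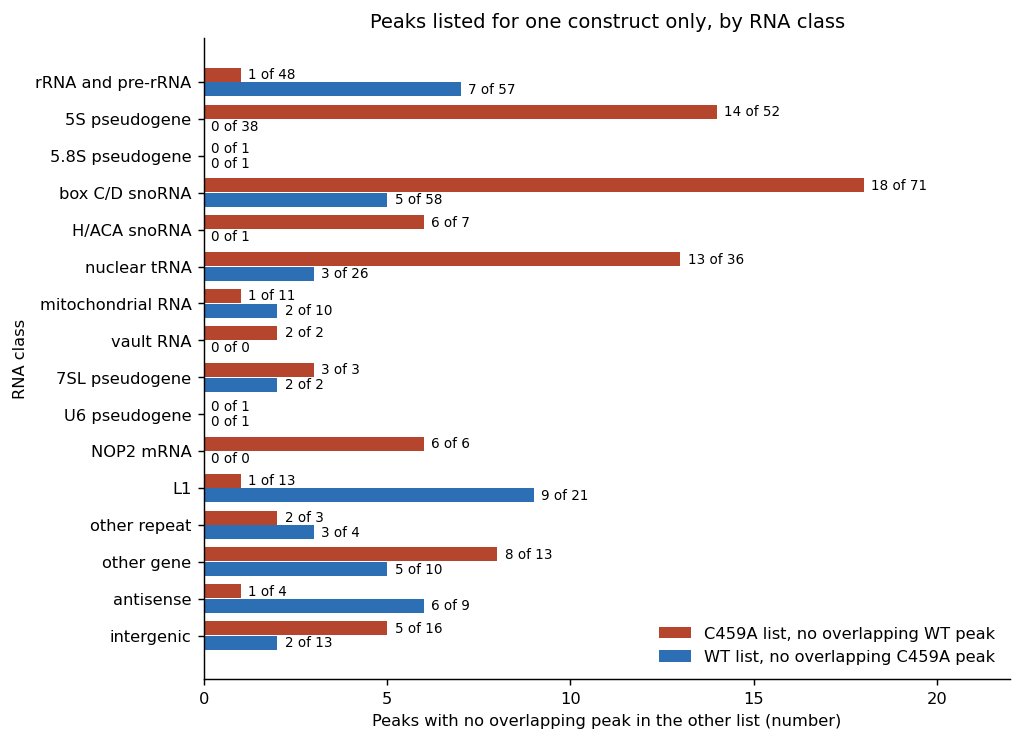
Number of peaks with no overlapping peak in the other list (horizontal axis) by RNA class, with C459A-only peaks in red above WT-only peaks in blue. The label of each bar gives the count and the number of listed peaks of that class, and the longest bars are the 18 box C/D snoRNA and 14 5S pseudogene peaks of C459A and the 9 L1 peaks of WT.

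The 6 C459A-only peaks on references of 28S rRNA and its precursor, or matching their sequence, all lay around 1 place. It was the cytosine C4447 of 28S in the numbering of RNA45SN5. Peaks on 5S pseudogenes and mitochondrial rRNA are not counted here. This cytosine is the human counterpart of the 25S cytosine that yeast Nop2 methylates. One peak on the 28S reference of RNA45SN1 (chromosome 21, 8433222 to 8446572, hg38) covered it, and 5 short peaks on other chromosomes carry near-copies of the bases that follow it. The stretch of the RNA45SN1 28S in which these 5 matches lie is shown first (chr21:8445573-8445673, hg38, plus strand), with C4447 in capitals. Each other line is the peak's own sequence read from hg38 on its strand, with capitals where a base is identical to 28S.
28S of RNA45SN1: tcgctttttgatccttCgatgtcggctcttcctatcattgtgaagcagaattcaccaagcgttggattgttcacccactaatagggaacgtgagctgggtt
LOC110467528: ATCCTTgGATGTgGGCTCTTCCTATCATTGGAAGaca
LOC110467526: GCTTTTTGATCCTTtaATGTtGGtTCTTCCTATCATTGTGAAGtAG
chromosome 4 peak: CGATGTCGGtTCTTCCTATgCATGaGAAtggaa
chromosome 14 peak: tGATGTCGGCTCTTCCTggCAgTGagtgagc
HFM1: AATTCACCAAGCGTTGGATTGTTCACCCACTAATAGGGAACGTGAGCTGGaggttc

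The 28S peak ran from base 4251 to base 4572 of the RNA45SN1 28S, bases 4254 to 4575 in the numbering of RNA45SN5. Its log2 fold change was 3.65 and its adjusted p 1.23e-21, the 24th smallest of the C459A list. LOC110467528, which RefSeq lists as a pseudogene of 28S, had the third largest log2 fold change of the C459A list, 8.95 (adjusted p of 6.72e-06). Its peak lay on chromosome 19 from 43407118 to 43407154 on the plus strand, inside an intron of TEX101, and matched 28S bases 4441 to 4475 at 32 of 35 aligned positions. LOC110467526, the other 28S pseudogene, had a log2 enrichment of 4.57 (adjusted p of 0.00108) on chromosome 20 from 30512183 to 30512228 on the minus strand, and matched bases 4433 to 4478 at 41 of 46 positions.

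At the numbered cytosine these pseudogenes differ from 28S. Written as the 28S base, the 28S position and the base of the peak, LOC110467528 has C4447G and C4453G, and LOC110467526 has C4447T, G4448A, C4453T, C4456T and C4476T. The intergenic peak of chromosome 4 (35496075 to 35496107, minus strand) starts with the cytosine itself and has C4456T and T4471A beside gaps. It matched 28S up to base 4474 at 25 of 29 positions and had a log2 enrichment of 8.05 (adjusted p of 0.00049), the seventh largest of the list.

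The intergenic peak of chromosome 14 (101596632 to 101596662, plus strand) had the largest log2 fold change of all 287 C459A peaks, 10.24 (adjusted p of 1.81e-07). It matched 28S from the base after C4447 to base 4470, at 20 of 23 positions, and runs opposite to an intron of DIO3OS. The HFM1 peak, in an intron of that gene on chromosome 1 (91387220 to 91387275, minus strand), was identical to 28S at 50 of 50 positions, bases 4479 to 4528, and had a log2 enrichment of 4.39 (adjusted p of 0.000365). Of these 5 matches, 3 (LOC110467528, LOC110467526 and the chromosome 4 peak) reach C4447, and all 5 lie within 50 bases of it.

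Such matches to rRNA were found in both lists, but elsewhere. Peaks on chromosomes that were annotated as intergenic, antisense or a gene outside the named RNA classes were aligned to the 45S sequence of RNA45SN5. A match of at least 20 aligned positions with 80% identity, limits set after the alignments were seen, was present for 5 of 14 C459A-only and 9 of 13 WT-only peaks, and for 14 of 19 overlapping peaks in each list. None of the 9 WT-only matches or of the 14 overlapping matches of either list came within 50 bases of C4447. The nearest WT match was SEC14L1-AS on chromosome 17 (77162259 to 77162317), at a log2 fold change of 5.65 (adjusted p of 0.0338), identical to 28S bases 4648 to 4694 and starting 201 bases after C4447. RYR2 (28S bases 3803 to 3886, log2 fold change 3.48, adjusted p of 0.00138), GCNT1 (4877 to 4912, log2 fold change 4.75), VKORC1L1 (841 to 891, log2 fold change 2.77) and BARHL1 (1113 to 1136, log2 fold change 6.28, adjusted p of 0.0153) lay farther away.

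**Figure D2:**
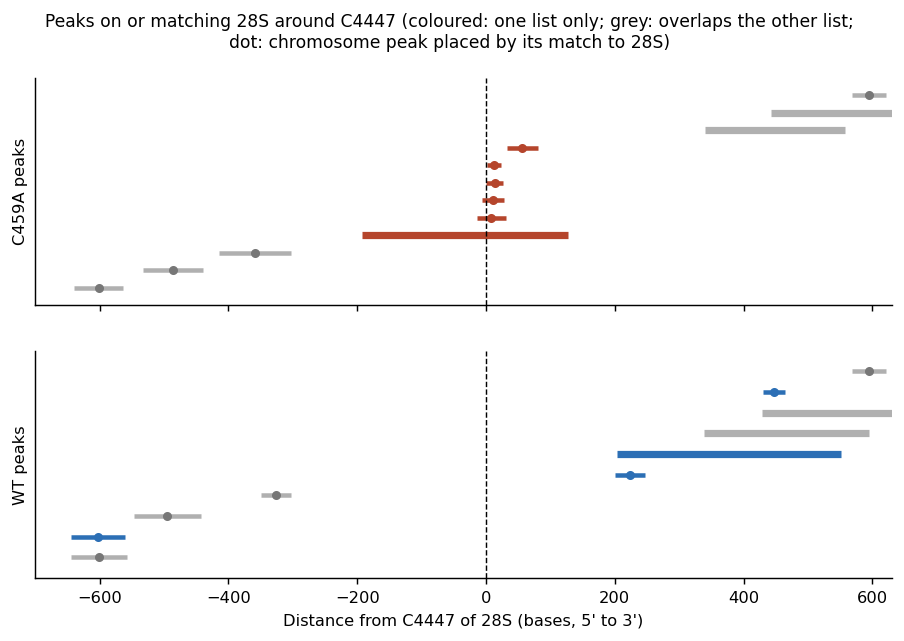
Peaks on 28S and 45S references and chromosome peaks that match 28S (dots), drawn as lines by their distance from C4447 in bases, with C459A above WT. Red or blue lines are peaks listed for that construct only and grey lines overlap a peak of the other list. The 6 C459A-only peaks cross 0 or begin within 50 bases after it, where no WT peak lies, and the nearest WT-only peaks begin 201 and 204 bases away.

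Placed on one 45S sequence, the C459A-only and WT-only peaks on rRNA references or matching 45S could be compared across references. Whether reads of the matching chromosome peaks came from rRNA was not tested. None of the 6 C459A-only peaks, all in this part of 28S, had a WT peak at the same place on any reference. Of the 16 WT-only peaks that could be placed, 15 shared at least 1 base of 45S with a C459A peak on another reference. The shared stretch was as short as 12 bases, for LOC100996699-AS, and the exception was SEC14L1-AS. Reads of near-identical 45S copies cannot be told apart, and values from several copies are not separate evidence. Among the 15 was the WT-only peak of chromosome 21 from 8209410 to 8209550, at a log2 fold change of 7.98 (adjusted p of 0.00084). It lies in the 5′ETS, the leader that is cut from the precursor. At the same 45S bases, 3437 to 3574, C459A had 3 peaks on other copies, among them bases 3301 to 3758 of RNA45SN1 with a log2 fold change of 3.42. The WT-only peak on an unplaced sequence of chromosome 22 (170838 to 171054), with the second largest log2 fold change of the WT list, 8.30 (adjusted p of 0.000168), also overlaps that C459A peak once both are placed on 45S. The other WT-only matches in the 5′ETS were LOC100996699-AS on chromosome 22 (bases 2028 to 2063 of 45S, log2 fold change 8.10, adjusted p of 0.000829), an intergenic peak of chromosome 21 (2529 to 2575, log2 fold change 5.75, adjusted p of 0.000527) and QDPR-AS on chromosome 4 (3463 to 3482, log2 fold change 5.30).

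The other 6 WT-only rRNA peaks lay on 45S and 28S references and had log2 fold changes between 1.04 and 1.73, close to the 2-fold limit of the lists. On the 45S reference of RNA45SN1 these were bases 7079 to 7432 (log2 fold change 1.07, adjusted p of 0.035), 7518 to 7855 (1.31, adjusted p of 0.00924) and 13216 to 13351 (1.29, adjusted p of 0.0297), in ITS2 and the 3′ETS by their midpoints. On the 28S references, RNA45SN1 had one at 2705 to 3079 (log2 fold change 1.29, adjusted p of 0.00896), RNA45SN2 one at 1061 to 1272 (1.73, adjusted p of 0.000425) and RNA45SN3 one at 4636 to 4983 (1.04, adjusted p of 0.0384). The peak at 7079 to 7432 was the member closest to the limit of the rule. It began after a gap of 7 bases from a C459A peak at 6659 to 7071 of RNA45SN1, which had a log2 fold change of 1.07 too (adjusted p of 4.56e-05).

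Vault RNAs are short polymerase III transcripts, some of which are part of the large vault particle. vtRNA1-2 was the only one of 4 vault RNAs in either list. Both of its C459A peaks were C459A-only. The transcript is shown because it carried the smallest adjusted p of all members.
vtRNA1-2: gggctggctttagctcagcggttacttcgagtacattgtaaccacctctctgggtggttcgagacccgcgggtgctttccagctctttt
On the transcript the peak covered bases 1 to 89, all of it, at a log2 fold change of 4.85 (adjusted p of 1.28e-48, the third smallest of the C459A list). On chromosome 5 the peak ran from 140718925 to 140719023 (log2 fold change 6.12, adjusted p of 3.63e-15). Both references describe the same gene (chr5:140718925-140719013, hg38, plus strand).

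**Figure D3:**
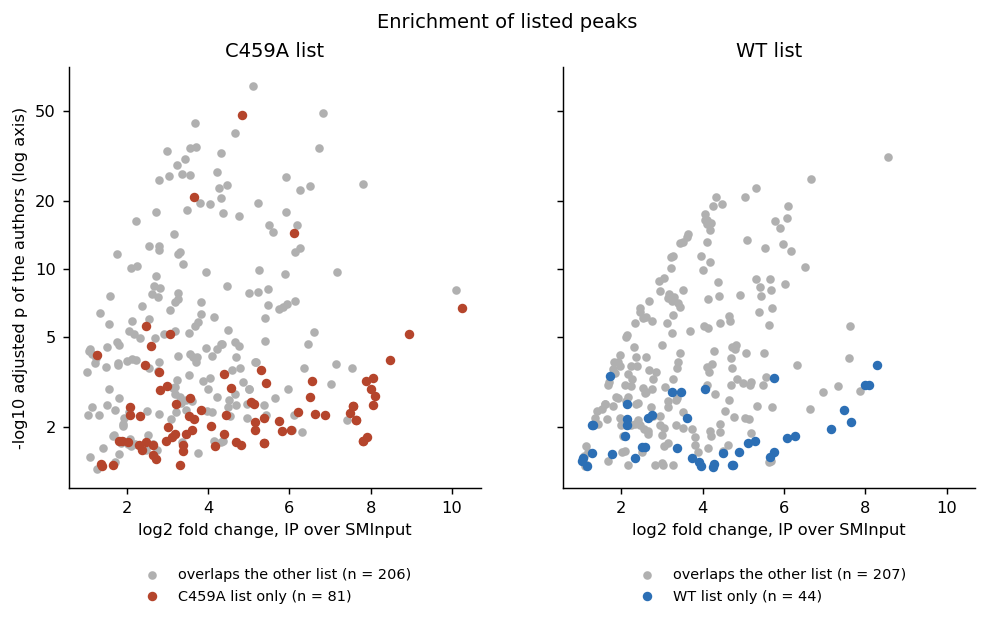
Log2 fold change of IP over SMInput (horizontal axis) against the authors' −log10 adjusted p (vertical log axis) for each listed peak, with the C459A list left and the WT list right. Coloured points have no overlapping peak in the other list and grey points have one, and 3 of the C459A-only points, the 2 vtRNA1-2 peaks and the 28S peak, stand above the others.

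As a group the members lay nearer to the adjusted p limit than the overlapping peaks. The median adjusted p was 0.0058 for C459A-only peaks and 4.23e-05 for the overlapping C459A peaks, and it was 0.0173 for WT-only peaks and 0.000314 for the overlapping WT peaks. An adjusted p under 0.01 was found for 49 of 81 C459A-only peaks (60.5%) and for 87.9% of the overlapping C459A peaks. In WT it was found for 18 of 44 WT-only peaks (40.9%) and for 82.1% of the overlapping peaks. Pooled over all classes, their median fold changes were larger. The median log2 fold change was 4.39 for C459A-only and 3.53 for overlapping C459A peaks, and 3.82 for WT-only and 3.40 for overlapping WT peaks. Pooled in the same way, the members were shorter, with a median of 59 bases for C459A-only against 92.5 for overlapping C459A peaks. In WT it was 71.5 against 95. The classes were mixed differently in members and overlapping peaks, and within classes the direction varied. Medians of C459A-only and overlapping peaks were 3.58 and 4.00 on box C/D snoRNAs, but 6.75 and 5.31 on 5S pseudogenes. For WT they were 1.29 and 3.08 on rRNA, where the WT-only peaks were longer (338 against 254 bases), but 4.49 and 3.82 on box C/D snoRNAs.

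Box C/D snoRNAs guide 2′-O-methylation of rRNA and form particles with fibrillarin, and some of them take part in the cleavage of the precursor. The 18 C459A-only peaks of this class had log2 fold changes from 1.38 to 8.47 and lay on 17 snoRNAs, 15 of which had no WT peak at all. SNORD27 had the smallest adjusted p of them (log2 fold change 3.06, adjusted p of 6.97e-06), and it is made from SNHG1 together with SNORD28 (6.22, adjusted p of 0.00468). Of the 8 snoRNAs of SNHG1, SNORD27 and SNORD28 had a C459A peak only, 2 were in both lists and 4 in neither. Of the 3 of SNHG16, SNORD1A (log2 fold change 3.56, adjusted p of 0.00203) and SNORD1B (4.17, adjusted p of 0.0227) were in the C459A list only. Over all box C/D snoRNAs of the C459A list, 15 of 62 had a C459A peak only and 47 were in both lists.

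The transcripts of these are shown with boxes C and D in capitals, searched on the sense strand as TGATGA in the first 25 bases and CTGA in the last 18. SNORD48 and SNORD11, the only snoRNAs with a WT peak and no C459A peak, follow them. In hg38 they lie at chr11:62855012-62855083 (SNORD27, minus strand) and, on the plus strand, at chr17:76561634-76561705 (SNORD1A), chr17:76561109-76561192 (SNORD1B), chr2:28927067-28927144 (SNORD53), chr2:28927983-28928060 (SNORD53B), chr17:16440036-16440106 (SNORD49A), chr6:31835263-31835326 (SNORD48) and chr2:202293051-202293134 (SNORD11).
SNORD27: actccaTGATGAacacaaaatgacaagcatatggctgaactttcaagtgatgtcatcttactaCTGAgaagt
SNORD1A: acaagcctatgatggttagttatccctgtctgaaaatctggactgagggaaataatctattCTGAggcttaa
SNORD1B: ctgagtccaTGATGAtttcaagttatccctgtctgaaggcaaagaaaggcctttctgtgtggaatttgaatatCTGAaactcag
SNORD53: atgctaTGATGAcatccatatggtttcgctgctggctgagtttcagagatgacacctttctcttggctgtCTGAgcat
SNORD53B: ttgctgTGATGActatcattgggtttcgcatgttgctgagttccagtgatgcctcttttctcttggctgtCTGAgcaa
SNORD49A: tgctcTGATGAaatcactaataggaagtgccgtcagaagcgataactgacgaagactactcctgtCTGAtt
SNORD48: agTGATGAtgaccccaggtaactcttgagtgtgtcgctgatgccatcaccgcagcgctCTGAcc
SNORD11: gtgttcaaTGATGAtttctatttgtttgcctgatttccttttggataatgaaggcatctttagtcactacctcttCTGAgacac
Both boxes were found in this form in 10 of the 15 C459A-only transcripts (66.7%), in both WT-only transcripts and in 198 of all 314 SNORD transcripts of GENCODE (63.1%). In SNORD1A box C was not found in this form.

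SNORD53 (log2 fold change 3.54, adjusted p of 0.0058) and SNORD53B (3.10, adjusted p of 0.0155), which lie within WDR43 and are identical at 65 of 78 positions, were both C459A-only over their full length. SNORD49A, within SNHG29, had C459A-only peaks on its transcript (6.51, adjusted p of 0.00194) and on chromosome 17 from 16440037 to 16440074 (5.05, adjusted p of 0.00259). SNORD12C and SNORD32A, which have WT peaks on their transcripts, were C459A-only on their chromosome references. SNORD12C had the highest value of the class there, 8.47 (adjusted p of 0.000108, chromosome 20 from 49278978 to 49279024, within ZFAS1), and SNORD32A had 3.20 (adjusted p of 0.0136).

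The remaining box C/D members of C459A had log2 fold changes of 4.07 (SNORD111B), 3.84 (SNORD97), 3.65 (SNORD4A), 3.60 (SNORD117), 3.39 (SNORD89), 2.73 (SNORD99), 2.65 (SNORD83A) and 1.38 (SNORD15A), with adjusted p-values between 0.00419 and 0.0423. They lie within host genes of several kinds, such as EIF4G2 (SNORD97) and the ribosomal protein genes RPL23A (SNORD4A), RPL3 (SNORD83A) and RPS3 (SNORD15A). Of the 15 C459A-only transcript peaks, 10 covered at least 90% of the snoRNA, against 38 of 43 of the overlapping C459A peaks on SNORD transcripts. None of the cleavage snoRNAs was a member. Of 17 symbols of U3, U8, U13, U14, U22 and U17, 12 were in both lists and 5 in neither, and the 18 peaks of each list all overlapped the other list.

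WT-only box C/D peaks were fewer, 5 of 58. SNORD48 (log2 fold change 3.96, adjusted p of 0.0453) and SNORD11 (3.74, adjusted p of 0.035) lay on transcripts. SNORD11 is made from NOP58, which codes for a core protein of box C/D particles. The other 3 lay on chromosome references and the same snoRNAs had a C459A peak on their transcripts. They were SNORD15B (log2 fold change 7.16, adjusted p of 0.0109), SNORD18A (5.76, adjusted p of 0.0281) and SNORD2 (4.49, adjusted p of 0.0295). On those transcripts the C459A log2 fold changes were 3.25 for SNORD15B, 3.72 for SNORD18A and 6.27 for SNORD2.

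H/ACA snoRNAs guide the conversion of uridine to pseudouridine. SNORA48 was the only one in both lists, and the other 6 of the C459A list were C459A-only. SNORA71D (log2 fold change 2.33, adjusted p of 0.00568) was the only 1 of them with an adjusted p under 0.01. SNORA12 had the largest value, 5.17 (adjusted p of 0.0113), from a peak on bases 1 to 69, 46.9% of its transcript. The gene lies at chr10:100237156-100237302 on the minus strand, and the ACA of its 3′ end, outside that peak, is in capitals.
SNORA12: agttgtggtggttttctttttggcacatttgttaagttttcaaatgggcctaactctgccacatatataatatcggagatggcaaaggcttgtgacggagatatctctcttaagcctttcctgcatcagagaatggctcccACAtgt
SNORA79B had 3.46 (adjusted p of 0.0136), SNORA44 2.47 (adjusted p of 0.0192), SNORA17A 2.04 (adjusted p of 0.0196) and SNORA74A 1.40 (adjusted p of 0.0459). SNORA44, SNORA71D and SNORA17A lie within the snoRNA host genes SNHG12, SNHG17 and SNHG7. ACA followed by 3 bases at the 3′ end was found in 3 of the 6 and in 66.4% of all 214 SNORA transcripts.

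NOP2 mRNA had 6 peaks in the C459A list, all C459A-only, and none in the WT list. They lay on the minus strand of chromosome 12, on exons 5 (6566098 to 6566324), 9 (6563081 to 6563172), 10 to 11 (6561698 to 6561974), 13 to 14 (6560486 to 6560796), 15 (6560094 to 6560322) and 16 (6557284 to 6557586) of the 16 exons of the canonical transcript in GENCODE. All of their exonic bases are coding. The log2 fold changes were 1.88, 2.81, 2.59, 1.81, 2.44 and 2.07 in that order, and the smallest adjusted p was 2.6e-05 on exons 10 to 11. The peaks over exons 10 to 11 and 13 to 14 also held 82 and 137 bases outside the exons. Both constructs were expressed from plasmids that carry the NOP2 gene, and RNA of the plasmid and of the chromosome cannot be told apart in coding exons.

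5S rRNA is the small polymerase III transcript of the large ribosomal subunit, and the genome holds many pseudogenes of it. The 14 C459A-only peaks on 5S pseudogenes had log2 fold changes from 1.28 to 8.10 with a median of 6.75, against a median of 5.31 for the 38 overlapping C459A peaks and 4.53 for the 38 overlapping WT peaks. They were short, with a median of 45.5 bases against 80.5 for the overlapping C459A peaks. Aligned to RNA5S1, all 14 covered bases 70 to 85 of its 119 bases, as did all 38 overlapping peaks of each list. RNA5SP136 (chromosome 3), RNA5SP206 (chromosome 6) and RNA5SP25 (chromosome 13), which had short peaks and large fold changes, are shown with bases identical to RNA5S1 in capitals.
RNA5SP136: ttGGCCTGGTTAGTACTTGGATGGGAG
RNA5SP206: GGtCTGGTTAGTACTTGGATGGGAG
RNA5SP25: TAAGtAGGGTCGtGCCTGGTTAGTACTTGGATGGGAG

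RNA5SP136, whose peak is read from base 62 to base 88 of its transcript, had the largest log2 fold change of them, 8.10 (adjusted p of 0.00175). RNA5SP25 had 8.06 (adjusted p of 0.00322), RNA5SP259 8.01 (adjusted p of 0.00114) and RNA5SP206 6.87 (adjusted p of 0.00537). RNA5SP149, the only pseudogene with C459A-only peaks on its transcript and on the chromosome, had 1.28 (adjusted p of 6.82e-05) and 3.02 (adjusted p of 0.00982). For all 14 a WT peak on another reference had the same sequence, with at least 90% identity over 50% or more of the peak. An intergenic C459A-only peak of chromosome 14 (75352887 to 75352928, log2 fold change 4.68) had such a counterpart too. Whether reads of these peaks came from 5S rRNA or from its pseudogenes was not tested.

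**Figure D4:**
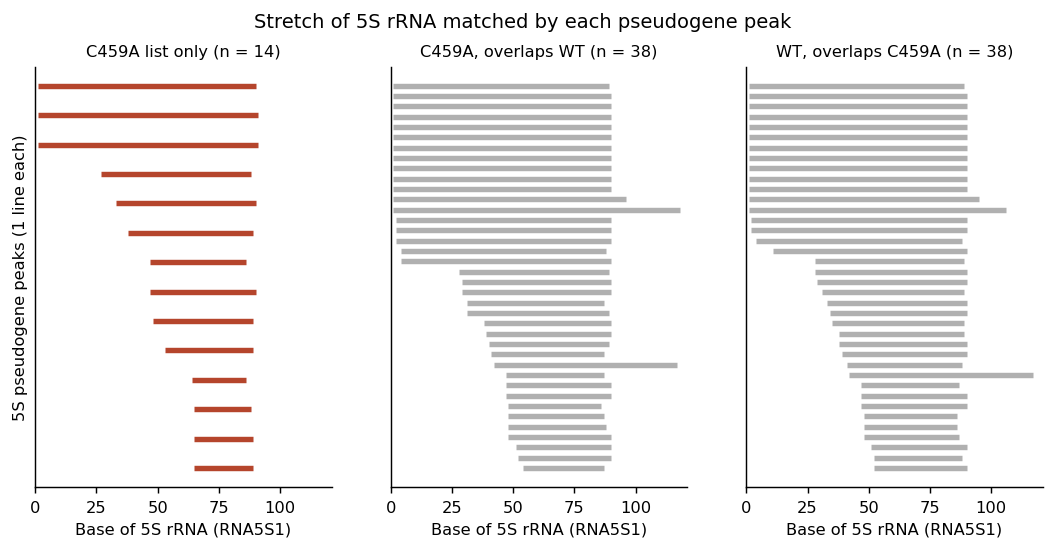
Bases of 5S rRNA (RNA5S1, horizontal axis) matched by each 5S pseudogene peak, 1 line a peak, for the 14 C459A-only peaks, the 38 C459A peaks that overlap WT and the 38 WT peaks that overlap C459A. All lines cross bases 70 to 85, and no WT-only panel is drawn because there was no such peak.

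Pseudogenes of 7SL, the RNA of the signal recognition particle, had 3 C459A peaks and 2 WT peaks, each on a different pseudogene and none of them overlapping by position. By sequence, 2 of the 3 C459A-only and both WT-only peaks had a counterpart in the other list. In C459A the log2 fold changes were 7.92 for RN7SL675P (adjusted p of 0.0158), 7.63 for RN7SL310P (adjusted p of 0.00716) and 6.04 for RN7SL464P (adjusted p of 0.0116). In WT they were 7.64 for RN7SL862P (adjusted p of 0.00803) and 4.28 for RN7SL664P (adjusted p of 0.0429).

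Nuclear tRNAs had 13 C459A-only and 3 WT-only peaks, and most of these concerned copies of tRNAs with relatives in the other list. Of the 13, 4 have a gene identical to that of a tRNA of the WT list, and 12 have one that is at least 90% identical. Of the 3 WT-only tRNAs, 2 have an identical gene in the C459A list. For Asn-GTT, copy 2-1 was in the C459A list (log2 fold change 2.09, adjusted p of 0.00551) and copy 2-2 was in the WT list (4.25, adjusted p of 0.0471). Both genes, at chr1:148529257-148529330 (plus strand) and chr1:161428077-161428150 (minus strand), have the sequence shown, with the anticodon in capitals. Copies 2-1 of Pro-AGG (chr1:167715488-167715559, minus strand) and 3-1 of Pro-TGG (chr5:181188854-181188925, minus strand), which differ only in the anticodon, follow it.
tRNA-Asn-GTT-2-1: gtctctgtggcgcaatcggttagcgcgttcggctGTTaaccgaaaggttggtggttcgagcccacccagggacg
tRNA-Pro-AGG-2-1: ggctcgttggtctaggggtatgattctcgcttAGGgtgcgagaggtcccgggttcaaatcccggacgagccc
tRNA-Pro-TGG-3-1: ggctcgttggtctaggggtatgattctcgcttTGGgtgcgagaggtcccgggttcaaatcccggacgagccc

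Proline tRNAs made up 5 of the 13 C459A-only peaks. They were Pro-AGG-2-1 (log2 fold change 2.98, adjusted p of 0.000891), Pro-AGG-2-2 (5.15, adjusted p of 0.00796), Pro-TGG-3-1 (3.22, adjusted p of 0.00303), Pro-TGG-3-2 (5.14, adjusted p of 0.00293) and Pro-TGG-3-5 (2.96, adjusted p of 0.0181). The WT list has 1 proline tRNA, Pro-AGG-1-1, whose gene is 98.6% identical to the AGG members and 97.2% to the TGG members. Lys-TTT-2-1 had the smallest adjusted p of the 13 (log2 fold change 2.80, adjusted p of 0.000316). The others were Lys-TTT-1-1 (3.38), Gly-TCC-2-2 (1.67) and Gly-TCC-2-3 (2.37), Phe-GAA-1-4 on chromosome 12 (5.43), Ser-TGA-2-1 (4.40) and the selenocysteine tRNA SeC-TCA-1-1 (5.37). By anticodon, Pro-TGG, Ser-TGA and SeC-TCA were listed in C459A alone and Leu-CAG in WT alone, with a log2 fold change of 6.08 for copy 1-2 (adjusted p of 0.0161). The gene of Ser-TGA-2-1 is 98.8% identical to that of Ser-AGA-1-1, which is in the WT list. The WT-only peak of Arg-TCG-3-1 on chromosome 17 (3.36, adjusted p of 0.0242) belongs to a tRNA with a C459A peak on its own reference.

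L1 elements are retrotransposons, and their families have references of their own. Here the WT list held more members. The 9 WT-only peaks lay on L1HS at bases 1395 to 1685 (log2 fold change 2.13), 1730 to 1935 (2.10), 2905 to 3123 (3.26) and 4977 to 5292 (1.78), on L1PA2 at 74 to 292 (3.62), L1PA6 at 3 to 228 (2.52), L1PB2C at 5237 to 5519 (2.59), L1PREC1 at 4049 to 4237 (2.35) and L1 at 3470 to 3790 (2.13). Their adjusted p-values lay between 0.00138, on L1HS at 2905 to 3123, and 0.0354. The references of L1HS, L1PA2, L1PA6 and L1PB2C had no C459A peak. L1 sequences were not read, so a C459A peak at a matching place of another L1 reference could not be looked for. Other repeat references added 2 C459A-only peaks, on the A simple repeat (bases 1 to 60, log2 fold change 4.44) and HERV17 (2.64), and 3 WT-only peaks, on the A simple repeat (bases 283 to 312, log2 fold change 7.48, adjusted p of 0.00411), AAC (3.90) and AG (2.66). The 1 C459A-only L1 peak, on L1PREC1 at 2641 to 2821, had a log2 enrichment of 2.30 (adjusted p of 0.0218).

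Mitochondrial RNA had 1 C459A-only peak, on MT-RNR2, the large mitochondrial rRNA, from base 2750 to base 2960 of the mitochondrial genome (log2 fold change 2.48, adjusted p of 2.5e-06), 118 bases from the nearest WT peak. WT had MT-RNR2 at 2020 to 2218 (2.14, adjusted p of 0.00288) and the phenylalanine tRNA MT-TF (1.16, adjusted p of 0.045). The first began after a gap of 48 bases from a C459A peak on the same reference. C459A also had a peak on bases 79 to 364 of the MT-RNR2 transcript (log2 fold change 1.10). Transcript and genome positions were not placed on one sequence here, so C459A may have a peak at that place too. Just inside the overlap rule were pairs on MT-RNR1, the small mitochondrial rRNA, which shared 37 and 46 bases, 8.08% and 8.80% of the joint length. The C459A and WT log2 fold changes were 1.42 and 2.37 in the first of these pairs, and 2.21 and 3.29 in the other.

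The overlapping peaks give the background against which the members stand. For each of the 206 overlapping C459A peaks the WT peak with the most shared bases was taken. The median difference in log2 fold change, C459A minus WT, was −0.15, and the C459A value was the larger in 97 of 206 pairs (47.1%). With 1 value for each annotation the median turned to 0.19, over 136 annotations. The quartiles were −0.59 and 0.44, and 172 of the pairs differed by less than 1. C459A had the smaller adjusted p in 133 pairs (64.6%), among them 42 with the lower fold change.

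Classes differed in these pairs. On rRNA and its precursor the C459A value was the larger in 2 of 47 pairs (4.26%), with a median difference of −0.54, and C459A nevertheless had the smaller adjusted p in 26 of them. On L1 it was larger in 0 of 12 pairs, with differences from −1.48 to −0.35, and C459A had the smaller adjusted p in none. On 5S pseudogenes it was larger in 29 of 38 pairs (76.3%), with a median of 0.37, and on nuclear tRNAs in 19 of 23 (82.6%), with a median of 0.34. On box C/D snoRNAs it was larger in 29 of 53 (54.7%), with a median of 0.12. Pairs and members come from the same lists and libraries, and neither supports the other.

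**Figure D5:**
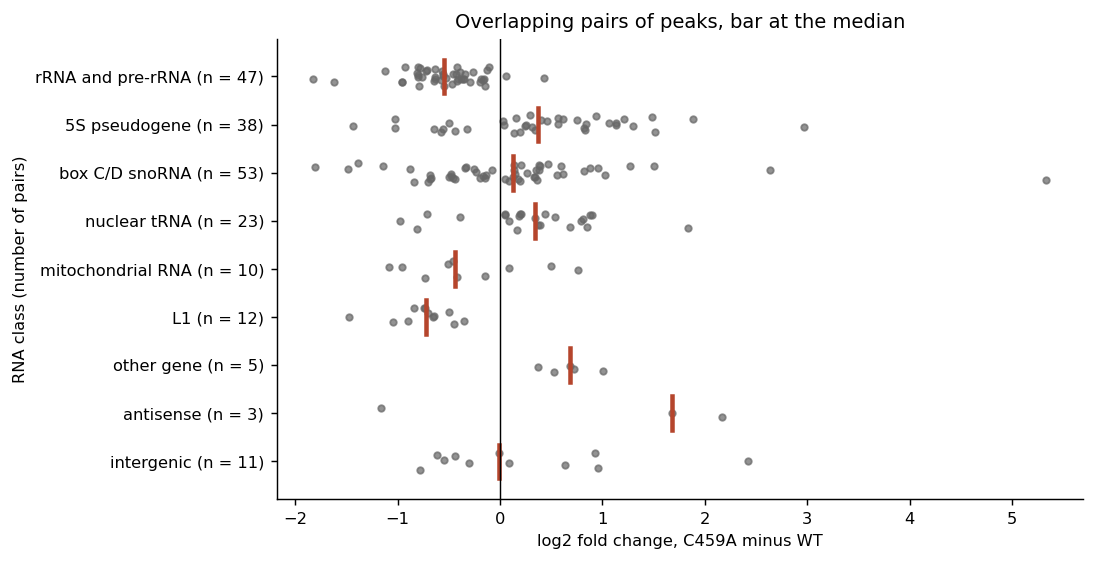
Difference in log2 fold change, C459A minus WT (horizontal axis), for each overlapping pair of peaks, 1 point a pair, by RNA class with at least 3 pairs. The red bar is the median, at −0.54 for rRNA and −0.72 for L1, against 0.37 for 5S pseudogenes and 0.34 for nuclear tRNAs.

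The largest differences in each direction came from several classes. SNORD12C, whose chromosome peak was C459A-only, had on its transcript a log2 fold change of 10.10 in C459A and 4.76 in WT, a difference of 5.33. RNA5SP174 followed with 7.53 in C459A and 4.56 in WT, and SNORD12, made from the same host as SNORD12C, with 6.14 in C459A and 3.51 in WT. The next were an intergenic peak of chromosome 15 with 6.46 in C459A and 4.03 in WT, and UNC45B-AS with 5.00 in C459A and 2.83 in WT. The lowest differences were those of the 5′ETS of RNA45SN3 at 2615 to 2878, with 6.73 in C459A and 8.55 in WT, and of SNORD42B, with 3.76 in C459A and 5.57 in WT. They were followed by a 45S copy of chromosome 21 at 8217067, with 3.69 in C459A and 5.31 in WT, SNORD3E with 4.16 in C459A and 5.64 in WT, and L1PREC1 at 5391 with 1.92 in C459A and 3.40 in WT.

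Beyond position, many members had relatives in the other list. The same RNA, by name without its copy number, had a peak elsewhere in the WT list for 31 of the 81 C459A-only peaks. It had one elsewhere in the C459A list for 19 of the 44 WT-only peaks. All 5S pseudogenes counted as 1 RNA here, as did all 7SL pseudogenes, which gave 14 and 3 of the 31. By its own name, the pseudogene was in the WT list for only 3 of those 14 peaks. A sequence could be read for 66 of the C459A-only and 30 of the WT-only peaks. Of these, 18 C459A-only (27.3%) and 15 WT-only peaks (50%) had a peak of the same sequence on some reference of the other list. The tRNA and repeat references were not read, so these counts leave out counterparts there, such as those of Phe-GAA-1-4 and Arg-TCG-3-1 on chromosomes, whose own tRNA references had a peak in the other list. Read peaks with no counterpart found included the 28S peak at C4447, both vtRNA1-2 peaks and all 6 H/ACA peaks. All 6 NOP2 peaks and 17 of 18 box C/D peaks of C459A had none either. Among those 17 is the SNORD12C chromosome peak, whose snoRNA had a WT peak on bases 1 to 51 of its transcript. The chromosome peak begins within that stretch, so both share bases, but less than the 50% of the peak needed for a counterpart by sequence.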

How the data were processed

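miCLIP-sequencing of HEK293T cells with C459A or WT NOP2 gave 8 libraries. Per the submitters' processing notes and the methods, reads were trimmed with cutadapt, UMIs were moved into read names with fastp, reads were aligned to hg38 and to repeat families, and peaks were called with Peakachu. Tool versions were not given in the sources used here. For each peak, the authors deposited the ratio of IP to SMInput, both replicates together, as a log2 fold change, and its adjusted p-value as −log10, converted back here. The lists hold no counts, so depth and precision are unknown.

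Peaks were matched by position as described, and RNA classes come from the reference and annotation. Sequences were read from hg38, from GENCODE release 44 transcripts and, for rRNA and tRNA genes, at RefSeq (GRCh38.p14) coordinates. Local alignments used Biopython 1.88 with scores of 1 for a match, −1 for a mismatch, −2 to open and −1 to extend a gap. Overlap calls and alignments were checked on simulated data. Other tools were python 3.11.15, pandas 2.3.3, numpy 2.4.6, scipy 1.17.1, pysam 0.24.0, samtools 1.23.1 and matplotlib 3.10.9.

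The members, the lists of RNAs and the limits were chosen with earlier results of these data known. By the rule for named peaks, any list-specific peak could be named. Values were given for all on rRNA, vault RNA, NOP2, snoRNAs, mitochondrial RNA and L1, for the 8 smallest adjusted p and 8 largest log2 fold changes of each list, for copies with a sister in the other list, for the members nearest the overlap limit and for the 5 largest differences of pairs each way. Sequences of L1 and simple repeat references and of tRNA flanks were not analysed here. The sequences of the 7SL pseudogene peaks are not reported here.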

Additional observations from a re-analysis of the deposited data

How the results depend on the processing

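The lists pool the replicates and hold enriched peaks only, so no value could be recomputed without a replicate. No paired analysis was possible because the deposited columns carry no replicate. The main counts were 81 C459A-only and 44 WT-only peaks. At an adjusted p under 0.01 against the full other list, 49 of 230 C459A peaks (21.3%) and 18 of 188 WT peaks (9.57%) were left. Where the same RNA anywhere in the other list counted as a counterpart, 50 C459A-only (17.4% of the list) and 25 WT-only peaks (9.96%) were left. On chromosomes and unplaced sequences 30 of 76 C459A peaks (39.5%) were C459A-only and 19 of 63 WT peaks (30.2%) WT-only. On other references these were 51 of 211 (24.2%) and 25 of 188 (13.3%). With the same sequence on any reference as a counterpart, a setting chosen after seeing the data, 63 C459A-only and 29 WT-only peaks had no counterpart found, of which 48 and 15 had a sequence that could be read. The counts stayed within 1.5 times under the other settings (50% of both peaks shared, strand ignored, a gap of 100 bases, 4-fold, and an adjusted p under 0.01 in both lists). The median difference of pairs, −0.15, turned to 0.19 with 1 value for each annotation and stayed between −0.16 and −0.13 under the other 5 settings.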

Other observations

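Of the 14 C459A-only peaks with no named RNA class on chromosomes, 9 had no match to 45S. VLDLR-AS1 on chromosome 9 (2511256 to 2511291) had a log2 fold change of 7.90 (adjusted p of 0.000649), and an intergenic peak of chromosome 3 (44200005 to 44200021, 17 bases) one of 6.55 (adjusted p of 0.00062). EPB41 had 5.82, HHIPL1-AS 5.39 and LINC02533 3.30, all from peaks of 18 to 24 bases. LRP1B on chromosome 2 and a gene on chromosome X had the same values, 7.81 and 0.0188, as did RN7SL310P and an intergenic peak of chromosome 6, and RNA5SP325 and the selenocysteine tRNA. In all, 8 of the 81 C459A-only peaks shared both values with another peak of the list, against 3 of the 206 overlapping ones, and 1 of the 44 WT-only peaks against 1 of the 207 overlapping ones.

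The base composition of members differed between the lists. The median share of G and C was 50% in the 66 C459A-only peaks with a sequence and 54.1% in the 166 overlapping C459A peaks, and it was 72.5% in the 30 WT-only peaks and 55.1% in the 167 overlapping WT peaks. Among chromosome peaks with no named RNA class the medians were 45.9% for 14 C459A-only and 66.9% for 19 overlapping C459A peaks. In WT they were 80% for 13 WT-only and 70.4% for 19 overlapping peaks. ZACN-AS (100%, log2 fold change 5.12) and ERCC1-AS (88.9%, log2 fold change 4.90) were among the WT-only peaks. C14orf132-AS (61.1%, log2 fold change 4.71) and RBM10 (75%, log2 fold change 4.05, adjusted p of 0.0011) were WT-only too. ERCC1-AS had no match in the alignment to 45S of RNA45SN5, and matched a C459A peak on the 28S of RNA45SN1 (bases 3193 to 3574) at 90% identity over 74.1% of its bases. These shares were chosen after their values were seen, and whether base composition bears on the lists was not tested.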
